A study of Homo sapiens with 6 samples.

Results

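SELENBP1 and 7 enzymes that make or break down hydrogen sulfide were followed in A673 Ewing sarcoma cells that carry an inducible cDNA of the propeptide of lysyl oxidase (LOX-PP). The 8 genes are SELENBP1, CBS, CTH, MPST, SQOR, ETHE1, TST and SUOX. Each was found through the RefSeq transcript accession of its probe and has 1 probe, so that they are 8 of the 20503 genes that could be named and 8 of the 50599 gene probes of the array. SELENBP1 was chosen by its measured value, since its difference between the 2 groups of arrays was the second largest rise of the 16601 named genes, and the 7 enzymes were chosen by their role, with the results of this comparison already known. The values of the 8 genes are therefore given as a description, without a test. The methods name 3 separate experiments for A673/TR/empty cells (control arrays) and A673/TR/LOX-PP cells (LOX-PP arrays). Each line has 3 arrays, hybridised in 1 colour. Whether each experiment held both lines, so that the arrays are paired, is not stated, and the main fit treated them as unpaired. A673 is a cell line established from an Ewing sarcoma. All cells carry the tetracycline repressor (TR), the control cells carry the empty lentiviral vector, and the LOX-PP cells carry the propeptide cDNA and received doxycycline for 72 h. The sample labels state doxycycline at 1 µM for all 6 samples, whereas the methods can be read as naming it for the A673/TR/LOX-PP cells only, so that the treatment of the control cells is not settled. The cells were selected as stable clones, and which clones were hybridised is not given in the sources used here. A difference between clones and an effect of LOX-PP thus cannot be told apart. If the control cells received no doxycycline, an effect of the drug itself cannot be told apart from them either.

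Hydrogen sulfide is a toxic gas that cells also produce as a signalling molecule. CBS and CTH, the enzymes of transsulfuration, release it from homocysteine and cysteine, and MPST forms it from mercaptopyruvate. SELENBP1, a protein known for binding selenium, is a methanethiol oxidase, which turns methanethiol into hydrogen sulfide, formaldehyde and hydrogen peroxide. The sulfide is removed in mitochondria. SQOR, an enzyme of the inner membrane, oxidises it and passes the electrons to ubiquinone, ETHE1 oxidises the resulting glutathione persulfide to sulfite, TST (rhodanese) moves sulfur between persulfides, sulfite and thiosulfate, and SUOX oxidises sulfite to sulfate. Liver and colon, where SELENBP1 is abundant, are known for this pathway.

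Values are the log2 of the background-corrected spot signal minus the 75th percentile of the array, so that 1 unit is a 2-fold difference and 0 is the signal of a fairly bright probe. They rank arrays for 1 probe and do not rank probes. The share of gene spots flagged as clearly brighter than background was 56.9% to 74.8% in the control cells and 59.3% to 74.1% in the LOX-PP cells, and precision is limited by the small number of arrays. A separate slide and scan held LOX-PP replicate 1, while 1 slide held the remaining 5 arrays. A probe was tested where 3 or more of the 6 arrays measured it above background, and of these 32647 probes 5.66% had an adjusted p under 0.05 in limma. Their median difference was 0.13, and every difference below is given relative to it, as LOX-PP minus control. The p-values and the calls come from the fit before this median was subtracted. They therefore test the unshifted difference and not the relative one printed beside them. All 7 markers of Ewing sarcoma cells (CD99, NKX2-2, NR0B1, STEAP1, CCND1, PRKCB and LIPI) were above background on all 6 arrays, whereas CDH1, VIL1, ALB, APOB and TTR were above background on none. The single LOX probe was not higher on the LOX-PP arrays, with -0.09, 0.36 and 0.11 in the control cells against -0.12, -0.68 and -1.29 in the LOX-PP cells (difference -0.95, adjusted p = 0.217 in limma). Where this probe lies in relation to the cDNA of the propeptide is not stated, and the directions below rest on the labels.

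SELENBP1 had the widest difference of the 8 genes. Its log2 signal was -4.04, -4.67 and -3.25 in the control cells against 1.84, 2.18 and 2.14 in the LOX-PP cells. All LOX-PP arrays lay above all control arrays, with a gap of 5.09 between the groups, and the probe was well above background on every array. As deposited intensity, before any scaling, the control arrays gave 464, 247 and 651 and the LOX-PP arrays 10194, 28346 and 14731. The means were -3.99 ± 0.71 (SD, n = 3) and 2.06 ± 0.19 (SD, n = 3). The difference of 5.92 (SE 0.37) corresponds to 60.4-fold more signal on the LOX-PP arrays. Only 0.0964% of the named genes differed by more in either direction. With normexp background correction the difference was 5.19, and on the slide that held all but 1 array it was 5.99. In such bulk RNA, more cells with the transcript and more transcript per cell cannot be told apart.

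The 3 enzymes that form hydrogen sulfide from amino acids had differences between -0.74 and -0.05. CBS, which condenses homocysteine with serine or cysteine, had 5.85, 6.11 and 6.24 in the control cells against 6.08, 5.67 and 6.69 in the LOX-PP cells. The groups overlapped, and the difference was -0.05 (SE 0.31). RefSeq lists CBSL as another name of CBS, so that a copy annotated apart from it is not told apart here. CTH, the next enzyme of transsulfuration, which cleaves cystathionine to cysteine, had 2.81, 3.01 and 3.75 on the control arrays. On the LOX-PP arrays it had 1.65, 2.16 and 3.92, so that replicates 1 and 2 lay below every control array and replicate 3 above them. Its difference was -0.74 (SE 0.60), and -1.41 without LOX-PP replicate 3. MPST had 4.86, 4.95 and 5.13 in the control cells against 4.11, 4.31 and 4.99 in the LOX-PP cells, with LOX-PP replicate 3 inside the control range, and a difference of -0.64 (SE 0.28).

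SQOR, which takes the first step of sulfide oxidation, was low on all LOX-PP arrays. Its log2 signal was 2.17, 2.83 and 3.12 in the control cells against -2.01, -0.73 and -1.55 in the LOX-PP cells. The groups were 2.90 apart, and every array was well above background. The deposited intensity was 34395, 44480 and 53811 in the control cells against 709, 3767 and 1136 in the LOX-PP cells. The means were 2.70 ± 0.48 (SD, n = 3) and -1.43 ± 0.65 (SD, n = 3), and the difference of -4.26 (SE 0.40) corresponds to 19.2-fold less signal. SQOR stood at rank 41 of the 16601 named genes when these were ordered from the largest fall. On the slide with all but 1 array the difference was -4.01.

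The 3 enzymes after SQOR had differences between -1.13 and -0.38, and none of them was past the threshold in the fit over all probes. ETHE1 had 0.57, 0.34 and 1.15 in the control cells against -0.19, 0.21 and 0.07 in the LOX-PP cells. The groups did not overlap, but the gap of 0.14 was smaller than the SD of either group (0.42 and 0.21), and the difference was -0.78 (SE 0.28). TST had 5.11, 5.11 and 5.21 against 4.60, 5.01 and 5.06, a gap of 0.05 and a difference of -0.38 (SE 0.22). SUOX was dim, with -3.64, -3.61 and -3.09 in the control cells against -4.93, -5.15 and -3.27 in the LOX-PP cells, of which 2 measured it well above background. Here too LOX-PP replicate 3 lay within the control range, and the difference was -1.13 (SE 0.51), which became -0.44 with normexp background correction and -1.72 without LOX-PP replicate 3. The genes of TST and MPST lie next to each other on chromosome 22. Their differences were both below 0, which held for 7 of the 8 genes and so does not set this pair apart.

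The promoters of SQOR and ETHE1 are shown because these are the first and the second enzyme of sulfide oxidation, with a large and a small difference. RefSeq promoters (GRCh38.p14) matched 5 of the 8 genes, and the 250 bases before the transcript start are printed for SQOR at chr15:45634779-45635028 (plus strand) and for ETHE1 at chr19:43527202-43527451 (minus strand). Capitals mark GGGCGG, the core of the GC box, on either strand, where neighbouring matches may overlap.
SQOR: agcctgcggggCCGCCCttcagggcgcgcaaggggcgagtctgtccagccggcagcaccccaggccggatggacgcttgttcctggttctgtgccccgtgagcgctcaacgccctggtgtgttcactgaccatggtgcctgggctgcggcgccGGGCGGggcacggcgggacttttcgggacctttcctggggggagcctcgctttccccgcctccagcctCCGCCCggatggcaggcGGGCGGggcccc
ETHE1: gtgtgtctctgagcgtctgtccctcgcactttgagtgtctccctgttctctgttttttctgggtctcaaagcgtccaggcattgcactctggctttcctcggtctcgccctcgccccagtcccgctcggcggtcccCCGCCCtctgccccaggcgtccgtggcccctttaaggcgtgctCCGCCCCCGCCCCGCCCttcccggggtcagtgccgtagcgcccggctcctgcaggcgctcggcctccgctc

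Both windows held 4 matches to GGGCGG, a motif found in 42.6% of the 35116 promoters of the table. They were rich in G and C (73.2% in SQOR and 68.4% in ETHE1, against a median of 58.0% over all promoters), with 24 and 23 CpG dinucleotides against a median of 11. Neither held CCAAT (32.01% of all promoters), ACGTG, the core of hypoxia response elements (18.5%), TGACNNNGC, the core of antioxidant response elements (10.9%), TATAAA (10.72%) or GGAAGGAA, a repeat of the ETS core (3.06%). Motifs were searched on both strands and were chosen after the values were seen. The matches describe these letters only.

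Among all 8 genes, 1 (SELENBP1) was past the threshold upward and 1 (SQOR) downward in the fit over all probes. For comparison, 7.07% of all named genes were past it, 3.7% higher and 3.37% lower, and since this comparison entered the choice of the genes nothing is read from the count. The groups did not overlap for 4 of the 8 genes, SELENBP1 on the higher side and SQOR, ETHE1 and TST on the lower, whereas this held for 33.6% of named genes (15.4% higher and 18.2% lower). A difference below 0 was found for 7 of the 8, beside 9379 of the 16601 named genes. The median of the 8 was -0.69, compared with -0.09 over all named genes. The 7 enzymes ranged from -4.26 to -0.05.

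**Figure D1:**
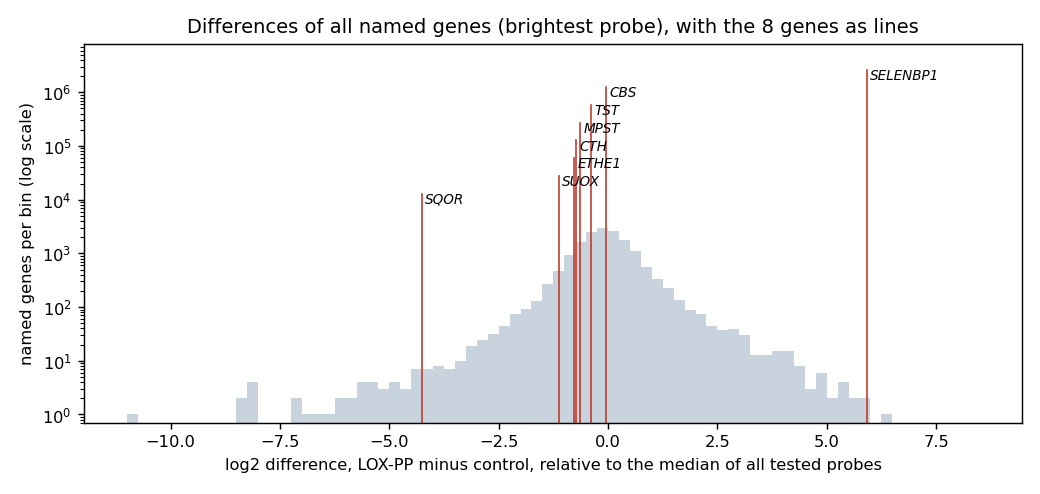
Number of named genes (vertical axis, log scale) by log2 difference, LOX-PP minus control, relative to the median of all tested probes (horizontal axis, bins of 0.25). Red lines mark the 8 genes and their height carries no value. SELENBP1 at 5.92 and SQOR at -4.26 stand in the thin tails, and the other 6 lie between -1.13 and -0.05.

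Within the groups, the same arrays were often at the top or the bottom. Control replicate 3 was the highest control array for all 8 genes, and it was also the control array with the fewest spots above background (56.9%). LOX-PP replicate 3 was the highest LOX-PP array for CBS, CTH, MPST, TST and SUOX, while LOX-PP replicate 1 was the lowest for 6 of the 8. Whether the background or the slide has a part in this was not tested.

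To place the 8 genes in sulfur metabolism, 7 lists of other genes were examined, 97 genes in all, of which 88 had a tested probe. Of the 88, 2 rose and 2 fell at an adjusted p under 0.05 in limma, which is 4.55%, below the 7.07% of all named genes, and 19 (21.6%) had an unadjusted p under 0.05, as did 23.7% of all named genes. In the methods' t-test 3 of the 88 passed, and 2.28% of all named genes. The median over the 88 was -0.21, compared with -0.09 over all named genes.

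The widest of these was PAPSS2, which makes PAPS, the sulfate donor of sulfotransferases. It had 1.87, 2.01 and 2.29 in the control cells against -0.43, 0.20 and 0.11 in the LOX-PP cells. The groups did not overlap, and PAPSS2 fell by 2.22 on the log2 scale (SE 0.26, adjusted p = 0.00731). Of the 10 tested genes on molybdenum cofactor, sulfate and sulfonation it was the only 1 past the threshold.

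In the glutathione list, 1 of 13 tested genes fell. OPLAH, which opens oxoproline to glutamate in the breakdown of glutathione, had 3.01, 2.79 and 3.45 in the control cells against 1.48, 1.22 and 1.98 in the LOX-PP cells. It fell by 1.65 on the log2 scale (SE 0.29, adjusted p = 0.0328), a call lost without any single control array and without LOX-PP replicate 1 or 2. The synthesis enzymes GCLC (-0.10), GCLM (0.11) and GSS (-0.38), named after their values were seen, were not past the threshold.

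Among 12 tested genes of other sulfide, persulfide and thiol enzymes, HAGH rose. HAGH, the second glyoxalase, which splits lactoylglutathione, had 2.76, 3.03 and 3.13 in the control cells against 4.14, 3.83 and 3.96 in the LOX-PP cells. The rise was 0.88 (SE 0.22). The adjusted p of 0.0468 in limma belongs to the unshifted difference of 1.00, and the call was lost without any single array. In this list, 6 of the 12 genes had an unadjusted p under 0.05, beside 23.7% of all named genes. TSTD1, a thiosulfate sulfurtransferase named here after its values were seen, had the lowest difference of the list, -1.34 (adjusted p = 0.0738), on a probe that only 2 control arrays and 1 LOX-PP array measured above background.

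SELENBP1 binds selenium without holding selenocysteine, and the genes of selenoproteins and of their synthesis are given beside it. Of 9 tested genes of selenoprotein synthesis, 1 rose, namely SECISBP2L, a relative of the protein that binds the selenocysteine insertion element. It had -0.77, -0.66 and -0.73 in the control cells against 0.08, 0.32 and 0.16 in the LOX-PP cells. The rise was 0.78 (SE 0.20). The adjusted p of 0.0474 in limma belongs to the unshifted difference of 0.91, and the call was lost without any single array other than LOX-PP replicate 1. Its second, dimmer probe gave 0.27 (adjusted p = 0.425).

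Of 20 tested selenoproteins, 0 were past the threshold by limma or by the methods' t-test, and 2 had an unadjusted p under 0.05 in limma. Their differences ran from -0.71 to 1.40. The largest t belonged to DIO3, a deiodinase of thyroid hormones (1.40, SE 0.50, adjusted p = 0.143), which only 2 arrays of each group measured above background. SELENOP, the selenium carrier of plasma, differed between its probes, as seen after the values were known. The brighter probe gave 1.07 (SE 0.47, adjusted p = 0.202) and the dimmer one 2.31 (SE 0.53, adjusted p = 0.0463).

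In the methionine cycle, 0 of 13 tested genes passed in limma, 4 had an unadjusted p under 0.05 and 1 passed in the methods' t-test. That gene was MAT2B, a subunit of methionine adenosyltransferase, with a difference of 0.60 (SE 0.19, adjusted p = 0.0837 in limma). Of the 11 tested genes of cysteine uptake, oxidation and taurine, 0 passed by limma or by the methods' t-test, and 1 had an unadjusted p under 0.05 in limma. The largest t of this list was that of SLC1A1, a transporter of glutamate and cysteine (-1.07, SE 0.27, adjusted p = 0.101).

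**Figure D2:**
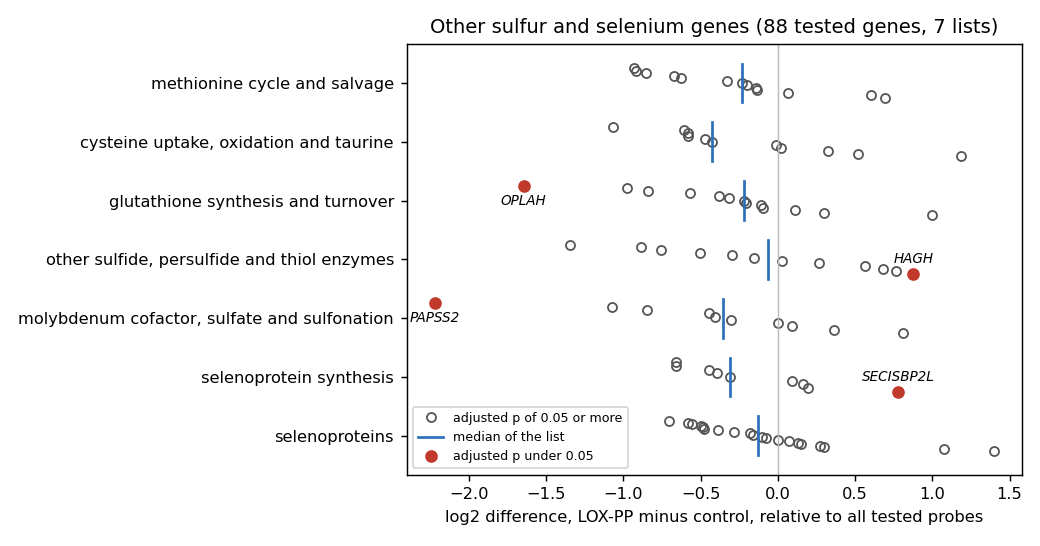
Log2 difference, LOX-PP minus control, relative to all tested probes (horizontal axis) of 88 other sulfur and selenium genes in 7 lists (vertical axis). Each point is the brightest probe of 1 gene, filled red at an adjusted p under 0.05, and blue bars give the median of a list. PAPSS2 and OPLAH are the filled points on the left, HAGH and SECISBP2L those on the right.

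The genes whose values were closest to those of SELENBP1 over the 6 arrays were RGS1, KRT14, ZNF667-AS1, CD70 and PRPH, among 14158 named genes above background on all arrays. Closeness was the distance between profiles after each was centred on its own mean, and it ran from 0.895 for RGS1 to 2.03 for PRPH, with Pearson correlations between 0.972 and 0.993 over 6 arrays. Since the difference between the groups dominates these profiles, the 5 genes share a rise of similar size (from 4.56 to 5.69), which is a description. RGS1 is a regulator of G protein signalling, KRT14 a keratin, CD70 a ligand of the tumour necrosis factor family and PRPH the neuronal intermediate filament peripherin.

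The closest profiles to SQOR, listed after its values were seen, were those of LTBR, HAAO, NEFL, ME3 and NEFH, with distances from 0.907 to 1.09 and differences from -4.18 to -3.62. NEFL and NEFH encode the light and the heavy neurofilament chain, HAAO an enzyme of tryptophan breakdown, ME3 a mitochondrial malic enzyme and LTBR the lymphotoxin beta receptor.

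**Figure D3:**
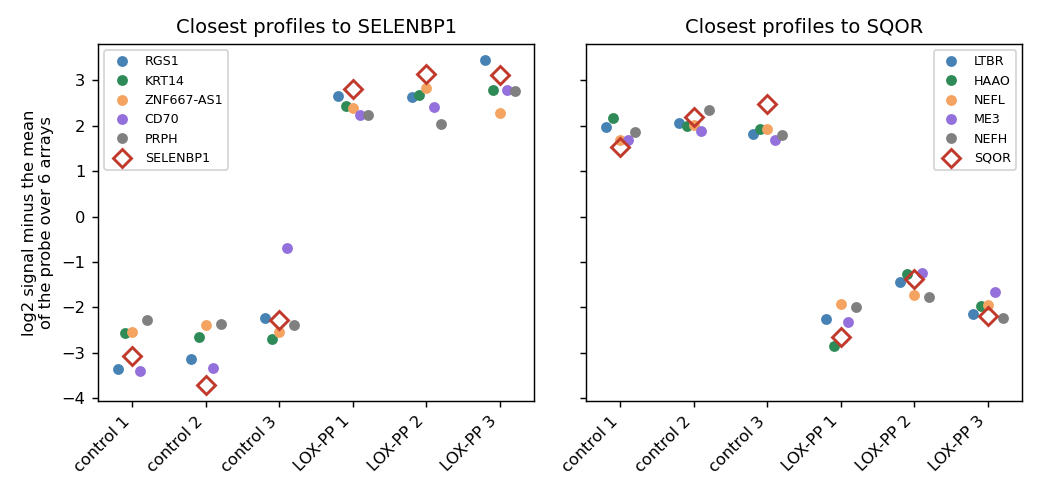
Log2 signal minus the mean of the probe over 6 arrays (vertical axis) on each array (horizontal axis) for SELENBP1 (left) and SQOR (right), as diamonds, and for the 5 genes with the closest profiles to each, as dots. CD70 on control replicate 3 is the dot farthest from SELENBP1 on the control arrays.

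The genes beside SELENBP1 on chromosome 1 differed far less than it did. In RefSeq order, ZNF687, PI4KB and RFX5 lie on one side and PSMB4, POGZ and CGN on the other. Their brightest probes differed by -0.70 (CGN) to 0.44 (PSMB4), and 0 of 6 passed the threshold in limma or in the methods' t-test, also at an unadjusted p under 0.05. Around TST and MPST on chromosome 22, 0 of 4 tested neighbours passed by limma or the methods' t-test, and 2 had an unadjusted p under 0.05 in limma. The values there ran from -0.91 (KCTD17) to 1.51 (IL2RB, adjusted p = 0.0553).

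Around SQOR on chromosome 15, a region examined after the values of SQOR were seen, 1 of 5 tested neighbours passed, and in the opposite direction. SLC30A4, a zinc transporter that lies 2 genes away from SQOR, had -5.55, -7.11 and -6.10 in the control cells against -2.48, -1.94 and -2.01 in the LOX-PP cells. The groups did not overlap, and the difference was 3.98 (SE 0.41, adjusted p = 0.00359 in limma), but only 1 of the 3 control arrays measured it above background, and it did not pass in the methods' t-test. BLOC1S6, a gene of lysosome-related organelles between the pair, had a difference of -0.41 (adjusted p = 0.568).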

How the data were processed

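The authors deposited the spot intensity of each of 6 Agilent SurePrint arrays as written by Agilent Feature Extraction 10.7 (per the labels), corrected for background by that software. The deposited flags of that software say whether a spot exceeded background, was saturated or was an outlier. A table of processed log2 values was deposited too, whose making is not given in the sources used here and which, once each probe was centred, matched the scaled log2 signal described next within 0.02 on all 50528 probes compared. Column medians of that table ran from -0.34 to 0.41.

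Control and outlier spots were removed, repeated spots of 1 probe were combined as the mean of their log2 signals, and each array was scaled by subtracting its 75th percentile. Probes above background on at least 3 of 6 arrays were tested with limma 3.58.1 in R 4.3.3, with Benjamini-Hochberg adjustment over 32647 probes. Of 50599 probes, 28174 (55.7%) were named through RefSeq accessions, and a gene is represented by its brightest tested probe. RefSeq GRCh38.p14 is a later build than the hg19 of the array design and served for names, order and promoters. The steps were tested on simulated data.

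Genes are named as follows: the 8 members, the list genes past the threshold or, in a list with none, the largest t, the 5 closest profiles, 3 neighbours on each side, LOX and markers. The members and lists were chosen with earlier results of these data known.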

Additional observations from a re-analysis of the deposited data

How the results depend on the processing

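Of 32647 probes, 1849 passed the threshold. Without a filter on dim probes 516 passed, in the methods' t-test 566, and with a replicate block 860. With any 1 array left out the count ran between 407 (control replicate 1 absent) and 2062 (LOX-PP replicate 1 absent), with 444 without control replicate 2, 892 without LOX-PP replicate 2 and 1037 without LOX-PP replicate 3. Whether the replicate numbers pair the arrays is not stated. Arrays of the same number deviated from their group means with correlations of 0.27, -0.39 and 0.23, and 2 of 6 arrays correlated best with their own number. With 3 arrays in a group and LOX-PP replicate 1 on a separate slide, these correlations cannot decide whether the arrays are paired.

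Of the 8 genes, 2 were past the threshold. In the methods' t-test it was 1, with SQOR lost, and without 1 array it was 2 or 3, the third being SUOX without LOX-PP replicate 3. Since values of this comparison entered the choice of the genes, these counts are no sign of stability. The difference of SELENBP1 was 5.19 with normexp and ran from 5.64 to 6.22 without 1 array. Over all alternatives the differences ran from -4.53 to -4.01 for SQOR, -0.40 to 0.27 for CBS, -1.41 to -0.31 for CTH, -0.90 to -0.48 for MPST, -0.96 to -0.61 for ETHE1, -0.56 to -0.27 for TST and -1.72 to -0.44 for SUOX, so that CBS took either sign.

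The 4 list genes past the threshold became 7 with quantile normalization and 7 with the mean of all probes, 1 with no filter, 2 with the replicate block, and from 1 to 3 without 1 array. PAPSS2 passed in 17 of 17 alternatives (adjusted p from 0.00344 to 0.0494), OPLAH in 9, SECISBP2L in 8 and HAGH in 7. The causes were not tested. The median difference of all tested probes was -0.03 with quantile normalization instead of 0.13. The files used hold no mean spot signal, and normexp was run on the median signal of each spot.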
